A study of Mus musculus with 48 samples.

Results

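Triglyceride is built in the liver from glycerol-3-phosphate and fatty acyl-CoA, and 9 genes for enzymes of this route were followed here, Gpam, Gpat3, Gpat4, Agpat2, Lpin1, Lpin2, Mogat1, Dgat1 and Dgat2. They were taken from the deposited table by gene name, as 9 of its 49315 genes. All 9 were found, and all 9 passed the filter on low values that left 15820 genes for testing. The RNA came from livers of male and female C57BL/6J mice, an inbred strain, sampled after 12 weeks. Within each sex there were 4 groups, a high-fat diet (HFD) with a weekly dose of a mixture of dioxin-like compounds, HFD with vehicle, a low-fat diet (LFD) with the mixture and LFD with vehicle, each of 6 livers. Doses per week were 10 ng/kg of TCDD, 80 ng/kg of PeCDF and 140 ng/kg of PCB126, all of them ligands of the aryl hydrocarbon receptor (AhR). Mouse age, diet composition and dosing route were not stated in the labels.

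The route starts with glycerol-3-phosphate acyltransferases (GPATs), which add the first fatty acid, and goes on with 1-acylglycerol-3-phosphate acyltransferases (AGPATs), which add the next and give phosphatidate. Lipins remove the phosphate to give diacylglycerol, and diacylglycerol acyltransferases (DGATs) add the last fatty acid. Monoacylglycerol acyltransferases reach diacylglycerol by a separate entry, from monoacylglycerol. In liver the product is stored in lipid droplets or secreted in very-low-density lipoprotein, and diacylglycerol and phosphatidate also feed phospholipid synthesis.

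Mogat1 and Lpin1 were the members whose transcripts moved in all 4 comparisons of diets, in opposite directions, and Agpat2 rose on HFD in males. The RefSeq promoter table (GRCm38.p6) held windows for 6 of the 9 members, and those of these 3 are shown, 5′ to 3′ on the gene's strand, to place the genes beside their response. Each stretch lies in the 250 bases before the RefSeq start, and bases inside annotated exons of the gene are left out. The Mogat1 window is chr1:78510810-78510990 on the plus strand, the Lpin1 window is chr12:16610967-16611216 on the minus strand, and the Agpat2 window is chr2:26604418-26604667 on the minus strand. Capitals mark matches to GCGTG (the core of the element that AhR binds), AGGTCA (a nuclear receptor half-site), CACGTG (an E-box) and GGGCGG (a GC box), each searched on both strands.
Mogat1: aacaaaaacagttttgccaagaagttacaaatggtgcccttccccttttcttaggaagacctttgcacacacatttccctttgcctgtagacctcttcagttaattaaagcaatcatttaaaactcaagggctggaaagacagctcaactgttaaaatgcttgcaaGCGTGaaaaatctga
Lpin1: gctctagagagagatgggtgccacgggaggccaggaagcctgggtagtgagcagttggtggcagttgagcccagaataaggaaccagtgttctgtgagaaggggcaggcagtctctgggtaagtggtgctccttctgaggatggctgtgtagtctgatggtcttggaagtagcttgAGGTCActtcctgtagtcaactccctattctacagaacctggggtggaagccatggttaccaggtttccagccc
Agpat2: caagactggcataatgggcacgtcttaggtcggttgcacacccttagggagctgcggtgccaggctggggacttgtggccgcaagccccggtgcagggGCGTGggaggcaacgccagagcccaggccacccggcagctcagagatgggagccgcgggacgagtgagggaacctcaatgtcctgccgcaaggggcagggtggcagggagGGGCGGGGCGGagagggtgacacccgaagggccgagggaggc
The Mogat1 stretch holds 1 GCGTG, the Lpin1 stretch holds AGGTCA, and the Agpat2 stretch holds GCGTG and overlapping copies of GGGCGG. Of the 9 windows of these 6 genes, 4 held GCGTG, 2 held AGGTCA, 1 held CACGTG and 5 held GGGCGG. Among all 32851 windows of 250 bases the shares were 28.2% for GCGTG, 14.0% for AGGTCA, 6.02% for CACGTG and 32.7% for GGGCGG.

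Levels are in TPM, in which reads are divided by gene length and each library is brought to 1 total, so they can be set side by side between genes, but they keep no sequencing depth, and the depth of each library is unknown. Per library, 13180 to 14713 genes reached 1 TPM, and no library was identical to another. The label liver was met by 7 hepatocyte markers, whose summed level ran between 56899 and 148757 TPM. That sum was lower in HFD than in LFD vehicle livers, at 73096 to 83429 against 95032 to 142264 TPM in males and at 82368 to 93936 against 125339 to 148757 TPM in females, and its part in the results below was not tested. Skeletal muscle transcripts stood out in 3 libraries, with 16450 TPM summed over 10 genes in replicate 6 of the HFD mixture males, 1341 TPM in replicate 3 of the LFD mixture females and 6307 TPM in replicate 3 of the LFD vehicle females, against at most 557 TPM elsewhere. The LFD mixture female also held 1641 TPM of 6 adrenal cortex genes, against at most 91.9 TPM in libraries other than these 3, and the highest adipocyte sum, 351 TPM. In bulk liver, fewer cells of a type and less RNA per cell cannot be told apart. Animals were numbered separately for each diet in the library names. Whether this marks separate cohorts was not given in the sources used here, and if so, cohort and diet cannot be told apart.

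On GRCm38, with GENCODE M21, all 9 are protein-coding genes. Gpam (ENSMUSG00000024978) lies on chromosome 19 at 55067268 to 55127238, minus strand, Gpat3 (ENSMUSG00000029314) on chromosome 5 at 100845713 to 100899102, plus strand, and Gpat4 (ENSMUSG00000031545) on chromosome 8 at 23171265 to 23208346, minus strand. Agpat2 (ENSMUSG00000026922) lies on chromosome 2 at 26593057 to 26604417, minus strand, Lpin1 (ENSMUSG00000020593) on chromosome 12 at 16535669 to 16610966, minus strand, and Lpin2 (ENSMUSG00000024052) on chromosome 17 at 71182560 to 71249817, plus strand. Mogat1 (ENSMUSG00000012187) lies on chromosome 1 at 78510991 to 78538173, plus strand, Dgat1 (ENSMUSG00000022555) on chromosome 15 at 76502015 to 76511953, minus strand, and Dgat2 (ENSMUSG00000030747) on chromosome 7 at 99153658 to 99182719, minus strand. Mogat1 overlaps BC035947, Agpat2 overlaps Egfl7 and Gm20532, and Gpam and Gpat3 overlap antisense genes, all on the other strand. Gpat3 also overlaps Gm42987, and Lpin2 overlaps the non-coding gene Gm26561, both on their own strand, so the values of these 5 genes could hold reads of a neighbour.

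**Figure D1:**
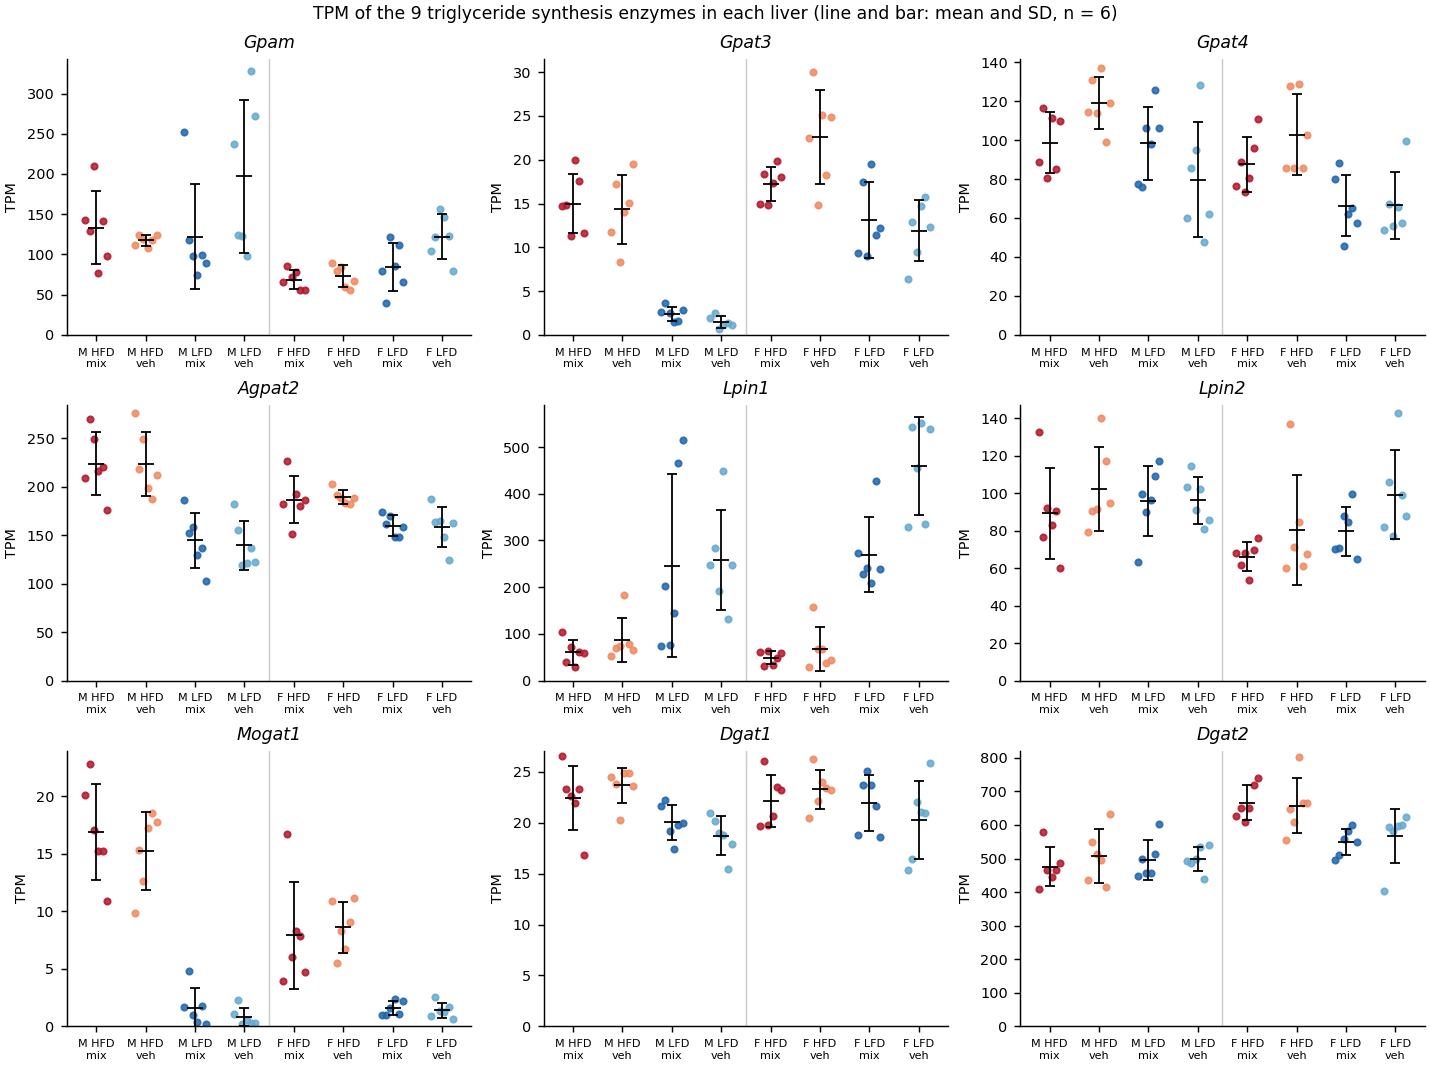
TPM of the 9 enzymes in each liver, by sex (M, F), diet and exposure (mix, veh). Points are livers and black marks give the mean and SD of 6. Mogat1 lies higher in every HFD group than in the LFD group of the same sex and exposure, and Lpin1 has the reverse pattern with some shared values in males.

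Averaged over the 48 libraries, Dgat2 was the most abundant of the 9 at 552 TPM, followed by Lpin1 at 187 TPM, Agpat2 at 178 TPM, Gpam at 115 TPM, Gpat4 at 89.8 TPM, Lpin2 at 88.6 TPM, Dgat1 at 21.6 TPM, Gpat3 at 12.3 TPM and Mogat1 at 6.74 TPM. The spread of group means was widest for Mogat1, where the highest was 21.7 times the lowest, for Gpat3 at 15.3 times and for Lpin1 at 9.34 times. It was between 1.26 times for Dgat1 and 2.87 times for Gpam in the other 6 genes.

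In the comparison of HFD with LFD livers, made within each sex and exposure, between 3 and 6 of the 9 genes were called. The members were chosen with earlier results of these data known, so these counts are not a test of the set. By limma on log2(TPM + 1), with p-values adjusted over all genes tested and called under 0.05, 6 of 9 members passed in vehicle males (5 higher, 1 lower), where 31.4% of all genes tested passed (25.6% higher, 5.82% lower). In mixture males 4 of 9 passed (3 higher, 1 lower), with 38.6% of all genes (31.7% higher, 6.92% lower). In vehicle females 5 of 9 passed (3 higher, 2 lower), with 28% of all genes (14.4% higher, 13.5% lower). In mixture females 3 of 9 passed (2 higher, 1 lower), with 19.2% of all genes (11.5% higher, 7.74% lower). The median log2 change of the members was 0.33 in vehicle males, 0.15 in mixture males, 0.22 in vehicle females and 0.21 in mixture females, beside medians of all genes tested of 0.11, 0.15, -0.01 and -0.001 in the same order. HFD and LFD groups did not overlap for 3 members in vehicle males, 2 in mixture males, 2 in vehicle females and 3 in mixture females, where 15.6%, 15.2%, 11% and 9.47% of all genes did not overlap.

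In males the median over all genes lay above 0 on the TPM scale, while genes were called in both directions. A trimmed-mean scaling moved the median of all genes in the diet comparison to -0.003 in vehicle males and -0.006 in mixture males. With it, 3894 of the 15820 genes were called in vehicle males and 5024 in mixture males, against 4963 and 6105 on TPM as deposited. Of these called genes, 53.2% were higher on HFD in vehicle males and 49.2% in mixture males, against 81.5% and 82.1% on TPM as deposited. The share of called genes that were higher in the diet by sex difference was likewise 50.9% with vehicle and 44.1% with the mixture after scaling, against 81.0% and 78.5% before it. In the comparisons of males with females the scaled shares higher in males lay between 49.0% and 56.6%, against 22.9% to 27.9% on LFD and 63.7% to 70.1% on HFD before it.

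Among the GPATs, Gpat3 changed most. It encodes an acyltransferase of the endoplasmic reticulum that is abundant in fat tissue. In HFD vehicle males it ranged between 8.35 and 19.5 TPM (median 14.6), against 0.709 to 2.51 TPM (median 1.27) in LFD vehicle males. In HFD mixture males it ranged between 11.3 and 20.01 TPM (median 14.7), against 1.44 to 3.60 TPM (median 2.54) in LFD mixture males. Every HFD male lay above every LFD male of the same exposure. The log2 change was 2.62 ± 0.20 (SE, adjusted p = 2.3e-13) in vehicle males and 2.23 ± 0.20 (adjusted p = 1.17e-11) in mixture males.

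Female livers carried more Gpat3 on LFD and gained less of it. HFD vehicle females ranged between 14.9 and 30.03 TPM (median 23.6), against 6.40 to 15.7 TPM (median 12.6) in LFD vehicle females, a log2 change of 0.89 ± 0.20 (adjusted p = 0.000789). HFD mixture females had 14.8 to 19.8 TPM (median 17.7), against 9.01 to 19.5 TPM (median 11.8) in LFD mixture females, which did not pass the test (log2 change 0.41, adjusted p = 0.152). The groups overlapped in both female comparisons. The test of the difference itself, the diet change in males minus that in females, gave 1.74 ± 0.29 (adjusted p = 3.04e-05) with vehicle and 1.82 ± 0.29 (adjusted p = 1.60e-05) with the mixture.

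Gpat4, the other GPAT of the endoplasmic reticulum, rose on HFD with vehicle in both sexes. HFD vehicle males had 119 ± 13.5 TPM and LFD vehicle males 79.6 ± 29.5 TPM (SD, n = 6 each), a log2 change of 0.65 (adjusted p = 0.00348) that missed the threshold after the trimmed-mean scaling (0.50, adjusted p = 0.0504). HFD vehicle females had 103 ± 20.9 TPM and LFD vehicle females 66.5 ± 17.1 TPM, a log2 change of 0.63 (adjusted p = 0.00519). With the mixture Gpat4 was not called, at a log2 change of 0.01 in males, which turned to -0.18 after the scaling, and 0.41 in females. Gpam encodes the mitochondrial GPAT, a textbook target of the lipogenic factor SREBP-1c. It fell on HFD in vehicle females, where livers ranged between 55.9 and 89.9 TPM (median 73.3), against 79.1 to 156 TPM (median 123) in LFD vehicle females. Ranges overlapped, and the log2 change was -0.72 ± 0.26 (adjusted p = 0.0322). Without the 3 libraries with muscle transcripts it was -0.65 and not called (adjusted p = 0.0676), nor was it without the filter on low values (adjusted p = 0.0707). In vehicle males Gpam was not called on TPM as deposited (-0.60, adjusted p = 0.0759) and fell after the scaling (-0.75, adjusted p = 0.0206). Gpam varied widely among LFD vehicle males, between 97.5 and 328 TPM, while HFD vehicle males stayed between 109 and 124 TPM.

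Agpat2, which adds the next fatty acid and whose loss in humans causes congenital lipodystrophy, rose on HFD in males. HFD vehicle males ranged between 187 and 276 TPM (median 215), against 119 to 182 TPM (median 129) in LFD vehicle males, without overlap. HFD mixture males ranged between 176 and 270.2 TPM (median 219), against 102 to 187 TPM (median 145) in LFD mixture males. The log2 change was 0.68 ± 0.11 (adjusted p = 6.97e-06) with vehicle and 0.64 ± 0.11 (adjusted p = 1.56e-05) with the mixture, and 0.53 and 0.44 after the scaling. In females Agpat2 averaged 189 ± 7.55 TPM in HFD vehicle livers and 158 ± 20.8 TPM in LFD vehicle livers, which was not called (log2 change 0.27, adjusted p = 0.0747). The mixture females likewise gave no call (0.21, adjusted p = 0.191). The difference of the diet changes between the sexes was not called for Agpat2 (0.42 with vehicle, adjusted p = 0.0625, and 0.42 with the mixture, adjusted p = 0.0597). It was called with the replicate number as a block (adjusted p = 0.0233 with vehicle, 0.0216 with the mixture). With the mixture it was also called without the 3 libraries with muscle transcripts (0.47, adjusted p = 0.046).

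Lpin1 fell on HFD in all 4 comparisons. Its product, lipin 1, turns phosphatidate into diacylglycerol and in liver also acts as a transcriptional coactivator, and its gene is known to respond to fasting and glucocorticoids. In vehicle females it ranged between 28.4 and 157 TPM (median 55.3) on HFD, against 329 to 552 TPM (median 498) on LFD. In mixture females it ranged between 30.5 and 62.6 TPM (median 54.0) on HFD, against 208 to 427 TPM (median 239.9) on LFD. Neither female pair of groups overlapped. The log2 change was -2.96 ± 0.38 (adjusted p = 9.77e-08) with vehicle and -2.44 ± 0.38 (adjusted p = 6.25e-06) with the mixture.

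The male groups shared part of their Lpin1 range. HFD vehicle males had 51.7 to 183 TPM (median 71.9), against 131 to 448 TPM (median 248) in LFD vehicle males, a log2 change of -1.59 ± 0.38 (adjusted p = 0.00115). HFD mixture males had 29.0 to 104 TPM (median 60.3), against 75.1 to 514 TPM (median 173) in LFD mixture males, a log2 change of -1.71 ± 0.38 (adjusted p = 0.00041). The fall in vehicle livers was numerically smaller in males than in females, by 1.37 on the log2 scale, and this difference was not called (adjusted p = 0.0718). Lpin2, the other hepatic lipin, stayed at group means between 66.2 and 102 TPM and was called in none of the 4 comparisons, with log2 changes between -0.33 and 0.07.

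Genes of the clock and of the fasting and glucocorticoid response, a list chosen after values were seen, were set beside Lpin1. In females Fkbp5, a glucocorticoid-induced chaperone gene, fell on HFD by 1.73 on the log2 scale with vehicle (adjusted p = 0.000829) and by 1.68 with the mixture (adjusted p = 0.00174). Arntl, which encodes the clock activator BMAL1, fell in females by 1.28 with vehicle and 1.15 with the mixture. The clock repressor gene Per2 rose in females by 0.91 with vehicle and 0.83 with the mixture. In males none of these 3 genes was called, with adjusted p-values of at least 0.157. The male change minus the female change with vehicle was 2.14 for Fkbp5 (adjusted p = 0.00561), 1.55 for Arntl (adjusted p = 0.00301) and -0.69 for Per2 (adjusted p = 0.103). With the mixture it was 1.34 for Fkbp5 (adjusted p = 0.0926), 1.15 for Arntl (adjusted p = 0.0294) and -0.46 for Per2 (adjusted p = 0.304). Over the 13 tested genes of the list limma called 3 higher and 5 lower in vehicle females, 2 higher and 4 lower in mixture females, 0 in vehicle males, where 2 had an unadjusted p under 0.05, and 2 lower in mixture males. Of all genes tested, 14.4% were called higher and 13.5% lower in vehicle females, and 11.5% and 7.74% in mixture females. These shares were 25.6% and 5.82% in vehicle males, and 31.7% and 6.92% in mixture males. The 2 called in mixture males were Tat, a glucocorticoid-induced aminotransferase gene that fell by 1.24 (adjusted p = 6.57e-05), and Pck1, a gluconeogenic gene that fell by 0.72 (adjusted p = 0.00109). Both also fell in vehicle females, Tat by 1.05 (adjusted p = 0.000863) and Pck1 by 0.61 (adjusted p = 0.00747). In mixture females Pck1 fell by 0.58 (adjusted p = 0.0158), and Tat was not called (-0.48, adjusted p = 0.165). The part of these shifts in the Lpin1 result was not tested.

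Mogat1 rose on HFD in all 4 comparisons, without overlap in any. It encodes a monoacylglycerol acyltransferase that is scarce in lean mouse liver and is known as a target of PPARγ. HFD vehicle males ranged between 9.88 and 18.5 TPM (median 16.3), against 0.188 to 2.26 TPM (median 0.449) in LFD vehicle males. HFD mixture males ranged between 10.9 and 22.8 TPM (median 16.1), against 0.167 to 4.78 TPM (median 1.32) in LFD mixture males. The mean was 19.5 times as high with vehicle and 10.4 times with the mixture. The log2 change was 3.26 ± 0.28 (adjusted p = 3.65e-12) with vehicle and 2.95 ± 0.28 (adjusted p = 5.24e-11) with the mixture, on the log2(TPM + 1) scale, which understates changes at such low levels.

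In females Mogat1 had 5.49 to 11.1 TPM (median 8.69) in HFD vehicle livers, against 0.596 to 2.53 TPM (median 1.30) in LFD vehicle livers. It had 3.91 to 16.7 TPM (median 6.94) in HFD mixture livers, against 1.01 to 2.36 TPM (median 1.36) in LFD mixture livers. The log2 change was 2.02 ± 0.28 (adjusted p = 4.46e-07) with vehicle and 1.70 ± 0.28 (adjusted p = 1.67e-05) with the mixture. The rise was larger in males than in females by 1.23 ± 0.40 (adjusted p = 0.0258) with vehicle and 1.25 ± 0.40 (adjusted p = 0.0257) with the mixture, both not called after the trimmed-mean scaling (adjusted p = 0.0535 with vehicle, 0.0601 with the mixture) or without the filter (adjusted p = 0.0591 with vehicle, 0.0567 with the mixture). With the mixture the call was also lost with a pseudocount of 0.1 (adjusted p = 0.0644) and with only the groups compared (adjusted p = 0.0607). Together with Gpat3 these were the members called for a difference of diet changes between the sexes, 2 of 9 with each exposure, where 18.2% of all genes passed with vehicle and 17% with the mixture.

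The DGATs stayed close to level. Dgat2, the acyltransferase tied to newly made fatty acids, averaged 666 ± 51.9 TPM in HFD mixture females and 549 ± 39.9 TPM in LFD mixture females, without overlap, a log2 change of 0.28 ± 0.096 (adjusted p = 0.0352) that was not called after the scaling (adjusted p = 0.0628) or without the filter (adjusted p = 0.0716). In vehicle females it was 0.22 and not called (adjusted p = 0.0848), and in males it lay at 0.01 with vehicle and -0.06 with the mixture, the first of which turned to -0.14 after the scaling. With the mixture the male change of Dgat2 minus the female change was -0.34 and not called (adjusted p = 0.0767). It was called after the scaling (-0.53, adjusted p = 0.0115), with the replicate block (adjusted p = 0.0291) and with only the groups compared (adjusted p = 0.0485). Dgat1 rose in vehicle males, with 23.7 ± 1.73 TPM in HFD livers and 18.7 ± 1.93 TPM in LFD livers. Its log2 change of 0.33 (adjusted p = 0.00829) was 0.18 and not called after the scaling (adjusted p = 0.196). In vehicle females it was 0.21 and not called (adjusted p = 0.111), and the difference between the sexes was not called (0.12, adjusted p = 0.613).

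**Figure D2:**
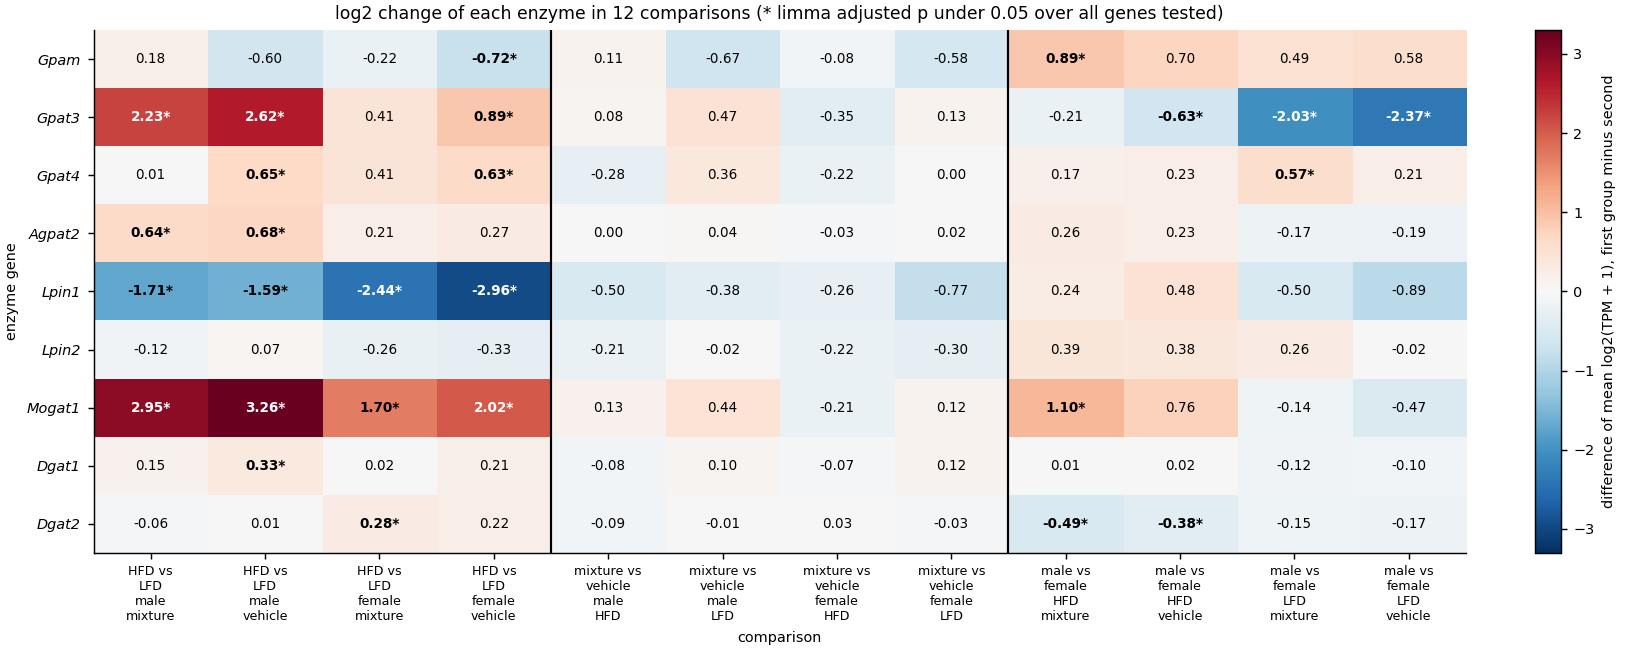
Difference of mean log2(TPM + 1), first group minus second, for the 9 enzymes (rows) in 12 comparisons (columns), with an asterisk where limma's adjusted p was under 0.05. The diet columns hold values between -2.96 for Lpin1 and 3.26 for Mogat1, and no mixture column holds an asterisk.

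Leaving out the 3 libraries with muscle transcripts changed few of these values. The log2 change of Mogat1 was then 3.06 in mixture males, 2.03 in vehicle females and 1.72 in mixture females, and that of Lpin1 was -1.72, -2.95 and -2.47, all still called. Gpat3 stayed at 2.30 in mixture males. Adipocyte markers were also followed, since Mogat1, Gpat3, Agpat2 and Lpin1 are expressed in fat. The summed level of the 7 genes was 29.7 to 335 TPM in HFD vehicle males and 9.40 to 25.4 TPM in LFD vehicle males, and 22.2 to 123 TPM in HFD mixture males and 8.37 to 21.7 TPM in LFD mixture males. In females it was 6.22 to 40.2 TPM in HFD vehicle livers and 4.09 to 17.4 TPM in LFD vehicle livers, and 4.30 to 15.2 TPM in HFD mixture livers and 6.60 to 351 TPM in LFD mixture livers. Cfd held 92.7% to 98.7% of the sum in HFD vehicle males and 86.4% to 95.4% in HFD mixture males, against 2.78% to 46.8% in LFD vehicle males and 1.94% to 42.8% in LFD mixture males. Adrb3, another of the 7, was lower on HFD in males. Its medians were 2.31 TPM on HFD and 9.45 TPM on LFD with vehicle, and 2.40 and 8.63 TPM with the mixture. In females they were 3.51 and 4.07 TPM with vehicle, and 2.89 and 6.53 TPM with the mixture. Adipoq, which marks adipocytes more narrowly, was at most 0.286 TPM in HFD vehicle males and 2.97 TPM in LFD vehicle males, and at most 3.70 TPM in HFD mixture males and 2.83 TPM in LFD mixture males. In females it reached 9.48 TPM in 1 HFD vehicle liver and 46.0 TPM in the LFD mixture liver with muscle transcripts, the same livers in which Plin1 was highest.

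Markers of other cells moved with diet in males, and some of them also in females. The 6 stellate cell genes summed to 124 to 142 TPM in HFD vehicle males and 69.3 to 89.4 TPM in LFD vehicle males, and to 128 to 524 TPM in HFD mixture males and 60.8 to 78.9 TPM in LFD mixture males. The 4 genes of lipid-associated macrophages summed to 97.3 to 164 TPM (median 127) in HFD vehicle males and 58.7 to 124 TPM (median 83.9) in LFD vehicle males. With the mixture they summed to 82.9 to 561 TPM (median 274) in HFD males and 63.2 to 90.2 TPM (median 73.6) in LFD males. The 524 TPM came from the liver with muscle transcripts, where Des, which muscle also expresses, stood at 435 TPM, and the highest of the libraries other than the 3 had 265 TPM. The stellate cell ranges did not overlap and the macrophage ranges did. The 5 small intestine genes summed to 2643 to 5296 TPM in HFD vehicle males and 660 to 2065 TPM in LFD vehicle males, without overlap, and to 1908 to 9126 TPM in HFD mixture males and 928 to 2808 TPM in LFD mixture males. Apoa4 and Fabp2, which liver also expresses, held most of that sum, while Lct, the lactase gene, stayed between 0.383 and 2.32 TPM in all libraries. Fabp2 was also higher in vehicle females, at 362 to 529 TPM on HFD and 170 to 215 TPM on LFD. Apoa4 had medians of 1297 and 1466 TPM in the same groups. No gene of these 4 lists was at 0 in all libraries. The part of these markers in the results on the enzymes was not tested.

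The share of each step's transcripts held by 1 isoform was compared by exact permutation tests on the 6 livers of each group (two-sided, smallest possible p 0.00216), adjusted over 24 tests. Lpin1 held 44.2% ± 6.41 of the summed Lpin1 and Lpin2 TPM in HFD vehicle males and 71.2% ± 6.52 in LFD vehicle males (SD, n = 6 each, exact p = 0.00216, adjusted 0.0173). It held 39.6% ± 8.49 in HFD mixture males and 64.9% ± 14.4 in LFD mixture males (exact test, adjusted p = 0.0260). In females it held 42.6% ± 7.81 in HFD vehicle livers and 82.0% ± 3.59 in LFD vehicle livers, and 41.9% ± 5.64 in HFD mixture livers and 76.7% ± 3.84 in LFD mixture livers (exact tests, adjusted p = 0.0173 each). Lpin2 was thus the more abundant lipin transcript on average in all 4 HFD groups, and Lpin1 in all 4 LFD groups.

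Of the GPAT step, Gpam, Gpat3 and Gpat4 were summed, without Gpat2, which averaged 2.96 TPM. Among the 4 diet comparisons of the Gpam share, 1 passed. Gpam held 37.0% ± 7.08 of the summed TPM in HFD vehicle females and 60.5% ± 9.97 in LFD vehicle females (exact permutation test, adjusted p = 0.0312). In vehicle males the shares were 47.0% ± 3.17 on HFD and 67.6% ± 17.4 on LFD, which was not called (exact permutation test, adjusted p = 0.0606). With the mixture they were 52.8% on HFD and 52.5% on LFD in males (adjusted p = 0.972) and 39.7% on HFD and 50.5% on LFD in females (adjusted p = 0.249), by the same test. Gpat3 was a small part throughout, at 5.68% in HFD vehicle males and 0.565% in LFD vehicle males, and at 11.3% in HFD vehicle females and 5.91% in LFD vehicle females. Dgat2 held between 95.4% and 96.8% of DGAT transcripts in every group, and none of its comparisons passed. In all, 5 of 12 diet comparisons and 0 of 12 mixture comparisons of shares passed, and the mixture comparison with the smallest p was Lpin1 in LFD females, at 76.7% with the mixture and 82.0% with vehicle (exact p = 0.0411, adjusted 0.110).

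**Figure D3:**
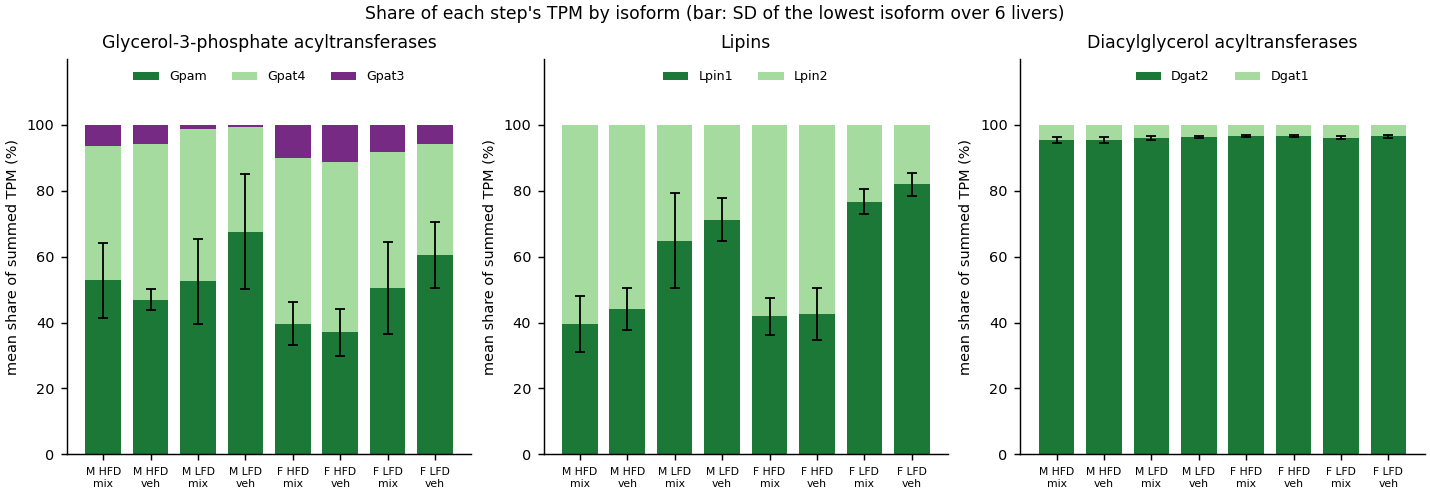
Mean share of each step's summed TPM held by each isoform in the 8 groups, with the SD of the lowest-drawn isoform over 6 livers. Lpin1 holds 39.6% to 44.2% in HFD groups and 64.9% to 82.0% in LFD groups, while Dgat2 stays between 95.4% and 96.8%.

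The mixture was compared with vehicle within each sex and diet, the question the exposure arm of the design poses. No member was called by limma, 0 of 9 in each of the 4 comparisons, where 0.0948% of all genes passed in HFD males, 0.0379% in LFD males, 0.0126% in HFD females and 0.0379% in LFD females. At an unadjusted p under 0.05 there were 0 members in HFD males (9.39% of all genes), 3 in LFD males (5.25%), 0 in HFD females (4.24%) and 2 in LFD females (9.5%). Averaged over the 4 comparisons 0 were called by limma, where 0.0948% of all genes were, and 3 had an unadjusted p under 0.05, as had 11.7% of all genes. Mixture and vehicle groups overlapped for every member, while they did not for 0.518% of all genes in HFD males, 0.126% in LFD males, 0.202% in HFD females and 0.493% in LFD females.

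Lpin1 was lower on average with the mixture in each comparison, without passing the test. LFD mixture females averaged 269.5 ± 80.1 TPM and LFD vehicle females 459 ± 104 TPM, a log2 change of -0.77 with a 95% interval between -1.55 and -0.002 (adjusted p = 0.525). Averaged over sexes and diets the log2 change was -0.48 (interval -0.86 to -0.09, adjusted p = 0.325). Gpam averaged 122 ± 65.2 TPM in LFD mixture males and 197 ± 95.1 TPM in LFD vehicle males (log2 change -0.67, interval -1.19 to -0.14, adjusted p = 0.834). LFD females gave 84.1 ± 29.9 TPM with the mixture and 122 ± 28.1 TPM with vehicle (log2 change -0.58, adjusted p = 0.485).

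Gpat3 averaged 2.42 ± 0.822 TPM in LFD mixture males and 1.48 ± 0.653 TPM in LFD vehicle males, a log2 change of 0.47 with an interval between 0.06 and 0.88 (adjusted p = 0.936). For Mogat1 the 4 log2 changes lay between -0.21 and 0.44, and for Agpat2 between -0.03 and 0.04. The widest SE of a member was 0.38, that of Lpin1, and the narrowest 0.096, that of Dgat2, so small changes were more detectable for Dgat2 than for Lpin1. The difference of mixture changes between HFD and LFD gave 0 of 9 calls in either sex, where limma called 0.00632% of all genes in each sex. At an unadjusted p under 0.05 there were 2 members in males (7.32% of all genes) and 0 in females (4.64%). The 2 were Gpam (0.78, adjusted p = 0.65) and Gpat4 (-0.63, adjusted p = 0.516).

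Male and female livers were compared within each diet and exposure. Males carried less Gpat3, at 1.48 ± 0.653 TPM against 11.9 ± 3.46 TPM in females on LFD with vehicle, a log2 change of -2.37 ± 0.20 (adjusted p = 9.39e-13) without overlap. On LFD with the mixture the means were 2.42 ± 0.822 TPM in males and 13.1 ± 4.34 TPM in females (-2.03, adjusted p = 9.34e-11), again without overlap. On HFD the gap was -0.63 with vehicle (adjusted p = 0.0324), not called without the filter (adjusted p = 0.0697), with a pseudocount of 0.1 (adjusted p = 0.0641) or with only the groups compared (adjusted p = 0.0609), and -0.21 with the mixture (adjusted p = 0.543). The diet by sex test above is the test of that narrowing.

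Dgat2 was lower in males on HFD, at 507.5 ± 79.3 TPM against 657 ± 82.2 TPM in females with vehicle (-0.38 ± 0.096, adjusted p = 0.00588). With the mixture the means were 475 ± 58.0 TPM in males and 666 ± 51.9 TPM in females (-0.49 ± 0.096, adjusted p = 0.000207), without overlap. Mogat1 was higher in males on HFD with the mixture, 16.9 ± 4.18 TPM against 7.91 ± 4.62 TPM in females (1.10, adjusted p = 0.00469), a call that was lost with a pseudocount of 0.1 (adjusted p = 0.063). Gpam was higher there too, 133 ± 45.5 TPM in males and 68.8 ± 12.2 TPM in females (0.89, adjusted p = 0.0136). On HFD with vehicle every male lay above every female for Gpam, at 109 to 124 TPM against 55.9 to 89.9 TPM. That difference was not called (0.70, adjusted p = 0.0693), but was with only the groups compared (adjusted p = 0.00139). Gpat4 was higher in males on LFD with the mixture, 98.3 ± 18.9 TPM against 66.4 ± 15.5 TPM in females (0.57, adjusted p = 0.015), and was not called without the 3 libraries with muscle transcripts (0.47, adjusted p = 0.0619). The sex comparisons called 3 of 9 members on HFD with the mixture, 2 on HFD with vehicle, 2 on LFD with the mixture and 1 on LFD with vehicle, where 15.3%, 11.8%, 21.5% and 23.7% of all genes passed.

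Ordered by group mean, Mogat1 was highest in HFD males, then HFD females, then the LFD groups, and of its 7 gaps between neighbouring groups 2 were wider than the larger SD, that between HFD males and HFD females and that between HFD and LFD. Gpat3 ran from HFD females over HFD males and LFD females to LFD males, with 2 such gaps, between LFD females and LFD males and between the 2 LFD male groups. Lpin1 was highest in LFD vehicle females, and the gap to LFD mixture females was its only one wider than the larger SD. Gpat4 and Dgat1 had no such gap, Agpat2 had 2 and Gpam, Lpin2 and Dgat2 had 1 each.

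Within groups the livers varied in a patterned way. Deviations of log2(TPM + 1) from the group mean were correlated over the 48 libraries for all 36 pairs of members, with p-values from 100000 permutations within groups, adjusted over the 36 pairs. Lpin1 and Lpin2 rose and fell together from liver to liver, with Pearson's r = 0.72 and Spearman's rho = 0.70 (permutation test, adjusted p = 0.00018 and 0.00036). The r was 0.82 among the 24 HFD livers, 0.63 among the 24 LFD livers and 0.67 without the 2 livers farthest from the median of Lpin1. Gpam and Gpat4 varied oppositely, with r = -0.71 and rho = -0.68 (permutation test, adjusted p = 0.00018 and 0.00036). That r was -0.50 on HFD, -0.78 on LFD and -0.70 without the 2 farthest livers. Gpat3 and Dgat1 had r = 0.48 and rho = 0.47 (permutation test, adjusted p = 0.0268 and 0.0276), but without the 2 farthest livers r was 0.37 (adjusted p = 0.133), so its call was lost without them. With the 3 libraries with muscle transcripts left out, r of this pair was 0.56 (permutation test, adjusted p = 0.00228). The smallest p that the permutations can give is 1e-05, and it was reached by the first 2 pairs.

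**Figure D4:**
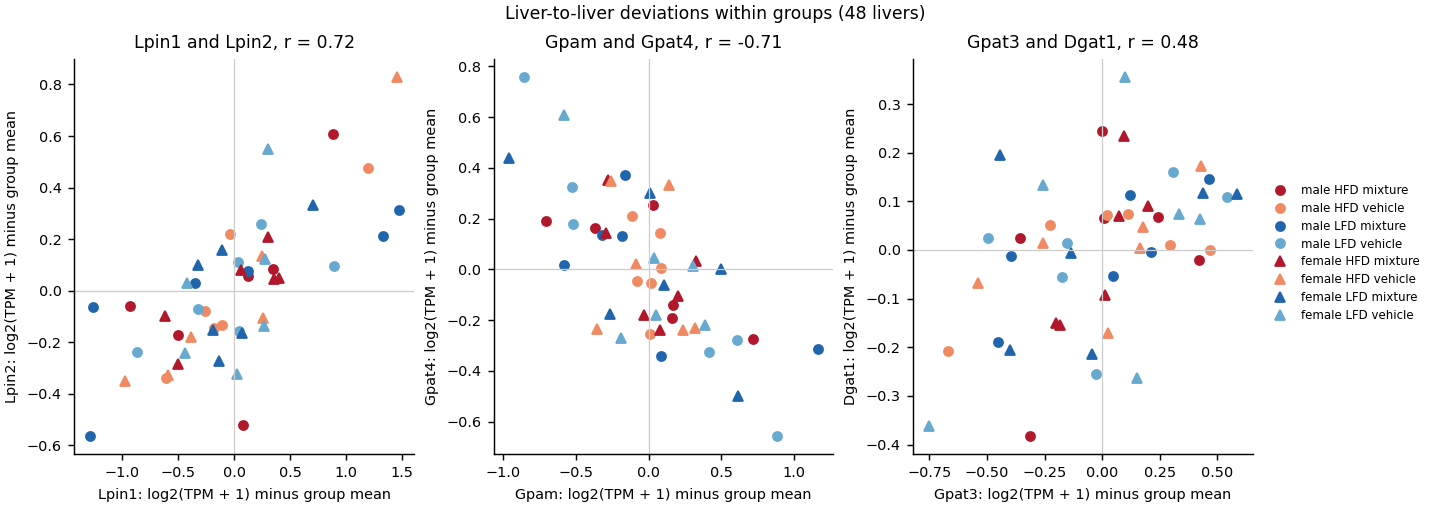
Deviation of each of 48 livers from its group mean of log2(TPM + 1), for the 3 pairs of enzymes called. Lpin1 and Lpin2 deviate together (r = 0.72), Gpam and Gpat4 oppositely (r = -0.71), and Gpat3 with Dgat1 more loosely (r = 0.48).

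For each member the 3 genes with the most similar pattern over the 8 group means were taken among 8371 genes that averaged 5 TPM or more. These r values are over 8 points, and the search over so many genes makes high values common. They were Tmem37, Sfxn1 and Vnn1 for Gpat3 (r 0.992 to 0.996), Psma6, Rmdn3 and Ppp2r1b for Mogat1 (0.996 to 0.998), and Prdm2, Acss2 and Cyth1 for Lpin1 (0.990 to 0.996). Agpat2 was closest to Pigk, Bloc1s6 and Pgk1, Gpam to Aacs, Map4k5 and Smu1, and Gpat4 to Chuk, Bcas3 and Fosl2. Lpin2 was closest to Hook1, Dennd4a and Pi4ka, Dgat1 to Adck1, Rpp30 and Cdk17, and Dgat2 to Sult1c2, Akr1d1 and Ppp1r15b.

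The rest of the pathway was read from 5 lists. Of all genes tested on HFD against LFD, 25.6% were called higher and 5.82% lower in vehicle males, and 31.7% and 6.92% in mixture males. In females the shares were 14.4% and 13.5% with vehicle and 11.5% and 7.74% with the mixture. After the trimmed-mean scaling 3894 of 15820 genes were called in vehicle males, 53.2% of them higher. In mixture males 5024 were then called, 49.2% of them higher. Of 10 tested paralogs of the enzymes, 4 rose on HFD in vehicle males and 8 in mixture males, while 1 rose and 1 fell in vehicle females and 1 rose and 1 fell in mixture females. After the scaling 3 rose in vehicle males and 3 in mixture males, and without the 3 libraries with muscle transcripts 0 rose in vehicle females. Agpat3, another AGPAT, moved oppositely in the sexes, rising in vehicle males to 98.4 TPM on HFD, against 70.5 TPM on LFD (log2 change 0.47, adjusted p = 4.1e-06). In vehicle females it fell to 79.2 TPM on HFD, against 99.0 TPM on LFD (-0.31, adjusted p = 0.0018), and the test of the difference gave 0.78 (adjusted p = 2.2e-06). In mixture males its rise of 0.37 was not called after the scaling (0.17, adjusted p = 0.0963). Lclat1, a lysocardiolipin acyltransferase of the same family, rose in males by 0.53 with vehicle and 0.41 with the mixture.

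Among 11 genes that supply glycerol-3-phosphate and acyl-CoA, 7 rose and 0 fell on HFD in vehicle males, and 4 rose and 1 fell in mixture males. In vehicle females 4 rose and 2 fell, and in mixture females 2 rose and 2 fell. Gk, the glycerol kinase gene, stood at 50.8 TPM in HFD vehicle males and 29.2 TPM in LFD vehicle males (log2 change 0.77, adjusted p = 6.3e-07). In females the acyl-CoA synthetase genes Acsl4 (-0.91) and Acsl5 (-0.88) fell with vehicle. Acsl5 averaged 329 TPM in HFD vehicle females and 595 TPM in LFD vehicle females. After the scaling 5 of the 11 rose and 1 fell in vehicle males, and 3 rose and 1 fell in mixture males. Without the 3 libraries 1 rose and 2 fell in mixture females.

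Of 16 tested genes of the phospholipid branches, 6 rose and 1 fell on HFD in vehicle males, and 8 rose and 2 fell in mixture males. In vehicle females 3 rose and 2 fell, and in mixture females 3 rose and 1 fell. Called in either direction were 31.4% of all genes in vehicle males, 38.6% in mixture males, 28% in vehicle females and 19.2% in mixture females. Chpt1, whose enzyme turns diacylglycerol into phosphatidylcholine, rose in all 4 comparisons, by 1.47 in vehicle males, 1.14 in mixture males, 1.45 in vehicle females and 0.88 in mixture females on the log2 scale. In vehicle males it averaged 125 TPM on HFD and 45.3 TPM on LFD. Pemt, which makes phosphatidylcholine from phosphatidylethanolamine, fell in males by 0.32 with vehicle and 0.40 with the mixture. After the scaling 4 of the 16 rose and 2 fell in vehicle males, and 3 rose and 3 fell in mixture males. Over all 15820 genes 3894 and 5024 were then called, 53.2% and 49.2% of them higher.

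The 12 genes of the lipin phosphatase and of droplet assembly gave 10 higher in vehicle males and 11 in mixture males, with 0 lower in either, and 4 higher with 1 lower in vehicle females and 2 higher with 1 lower in mixture females. After the scaling 8 rose in each male comparison. Their values were largest for Cidea and Cidec, droplet-fusion genes, at log2 changes of 5.62 and 4.38 in vehicle males. Among 13 regulators, 3 rose and 3 fell in vehicle males, where 25.6% of all genes rose and 5.82% fell. In mixture males 3 rose and 2 fell, beside 31.7% and 6.92% of all genes. In vehicle females 5 rose and 2 fell, beside 14.4% and 13.5%, and in mixture females 3 rose and 2 fell, beside 11.5% and 7.74%. After the scaling 2 regulators rose and 5 fell in vehicle males, and 3 rose and 6 fell in mixture males. Pparg, the nuclear receptor that drives fat storage genes, rose in all 4 comparisons, and in vehicle livers it averaged 19.4 TPM in HFD males and 6.48 TPM in LFD males (1.54), and 19.2 TPM in HFD females and 5.84 TPM in LFD females (1.58). Srebf1, which encodes SREBP-1, rose in females by 1.45 with vehicle and 1.46 with the mixture and in mixture males by 0.70. In the comparisons of mixture with vehicle limma called 0 of the 62 tested genes of the 5 lists. At an unadjusted p under 0.05 there were 5 in HFD males, 9 in LFD males, 3 in HFD females and 6 in LFD females. The shares of all genes tested at that level were 9.39%, 5.25%, 4.24% and 9.5% in the same order.

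**Figure D5:**
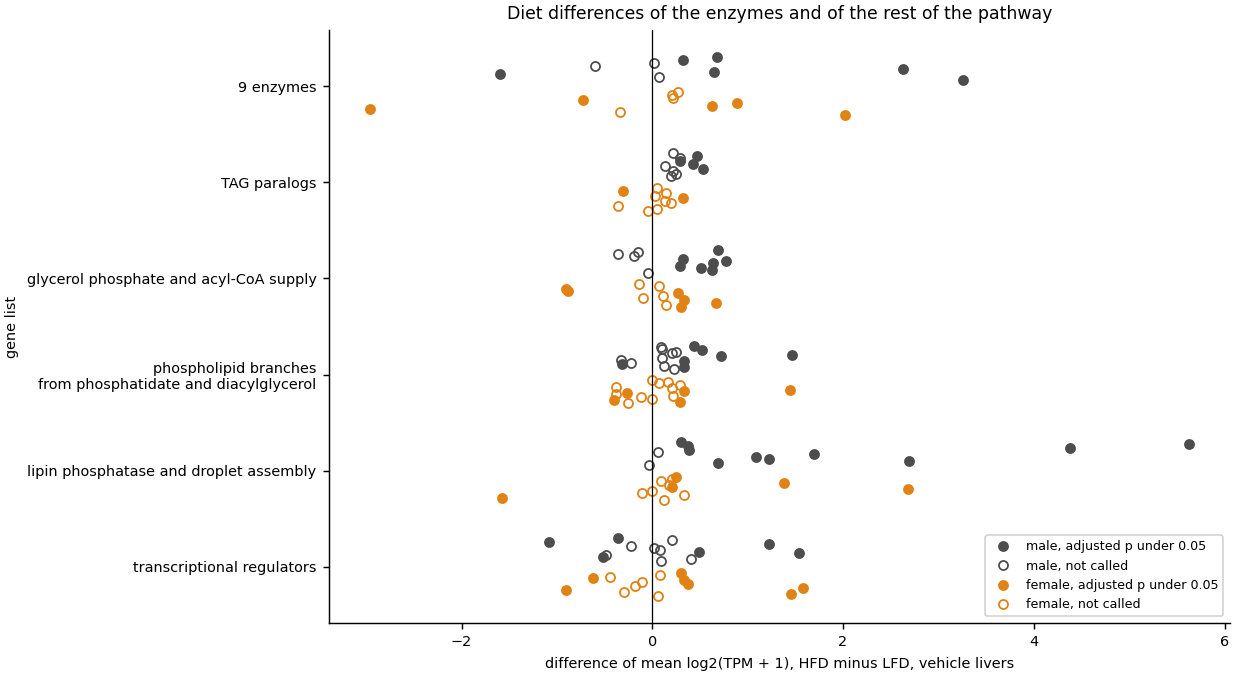
Difference of mean log2(TPM + 1), HFD minus LFD vehicle livers, for the 9 enzymes and the 5 pathway lists, with filled points where the adjusted p was under 0.05. Males (dark) reach 5.62 for Cidea, and females (orange) reach -2.96 for Lpin1.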

How the data were processed

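RNA was extracted from liver with the RNeasy plus mini kit as poly(A) RNA, per the labels' protocols. STAR 2.5.2b, Trimmomatic 0.36, FastQC and DESeq2 are listed with build GRCm38, without role or order, per the submitters' processing notes. Counter, annotation and strandedness were not given in the sources used here, so reads of Gpat3, Gpam, Agpat2 or Mogat1 and of overlapping genes on the other strand may not be separated, nor those of Gpat3 or Lpin2 and of overlapping genes on the same strand. The deposited values are TPM made by the authors per library, each summing to 1000000, so depth is unknown and its effect on precision could not be read.

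The members and lists were chosen with earlier results of these data known. On the log2(TPM + 1) scale, limma 3.58.1 was run in R 4.3.3 (empirical Bayes, intensity trend) on 48 libraries with 8 group means and 40 residual degrees of freedom. A gene entered where 6 or more libraries reached 1 TPM (15820 genes). P-values were adjusted by Benjamini-Hochberg over all genes tested within each of 18 comparisons, at a threshold of 0.05. The design kept a count test for counts, which was not used on TPM. The labels give no batch and do not say that replicates are separate animals beyond calling them replicates, so p-values reflect only how these libraries vary. All 9 members were named in each comparison, beside, from each pathway list, up to 4 called genes with the smallest p. Gene positions follow GENCODE M21 on GRCm38, which held 15779 of the tested identifiers, and promoter windows follow RefSeq on GRCm38.p6. The procedure was tested on simulated data. Alternatives were a trimmed-mean scaling (30% of log ratios and 5% of abundances trimmed), no filter, a pseudocount of 0.1, the replicate number as a block, only the groups compared, and leaving out the 3 libraries with muscle transcripts.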

Additional observations from a re-analysis of the deposited data

Results flagged for a closer look

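Of 72 combinations of member and group, 10 held a liver far from the other 5 by Dixon's criterion at the 95% level, which chance gives in about 1 of 20. High livers were Gpam in replicate 1 of the LFD mixture males (252 TPM, others 74.3 to 118), Gpat4 in replicate 6 of the LFD vehicle females (99.6 TPM, others 53.7 to 67.2) and Lpin1 in replicate 5 of the LFD mixture females (427 TPM, others 208 to 274). Lpin1 was also high in replicate 4 of the HFD vehicle males (183 TPM, others 51.7 to 77.5). Replicate 2 of the HFD vehicle females was high for both lipins, with 157 TPM of Lpin1 (others 28.4 to 68.2) and 137 TPM of Lpin2 (others 60.1 to 84.4). Mogat1 was high in replicate 2 of the LFD mixture males (4.78 TPM, others 0.167 to 1.73) and in replicate 2 of the HFD mixture females (16.7 TPM, others 3.91 to 8.26). Low livers were Dgat1 in replicate 3 of the HFD vehicle males (20.3 TPM, others 23.6 to 24.9) and Dgat2 in replicate 1 of the LFD vehicle females (405 TPM, others 582 to 624).

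A difference of the diet change between the sexes was called for Gpat3 and Mogat1. For Mogat1 the call was lost with each exposure after the trimmed-mean scaling and without the filter. The male change minus the female change was 1.74 with vehicle and 1.82 with the mixture for Gpat3, and 1.23 with vehicle and 1.25 with the mixture for Mogat1, on the log2 scale.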

How the results depend on the processing

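Over all alternatives run, no called member reversed its direction. The diet calls of Mogat1 and Lpin1 in all 4 comparisons and of Agpat2 in males kept their direction and their call under every alternative. The number of members called for a difference of diet changes between the sexes, 2 with each exposure, was 1 with vehicle and 2 with the mixture after trimmed-mean scaling, 1 and 1 without the filter, and 2 and 1 with a pseudocount of 0.1. With the replicate block it was 3 and 4. In the sex comparison on LFD with vehicle it was 2 in place of 1 after scaling and 2 with only the groups compared. On LFD with the mixture it was 1 in place of 2 without the 3 libraries with muscle transcripts. On HFD with vehicle it was 1 in place of 2 without the filter and 1 with a pseudocount of 0.1. The number of correlated pairs was 5 in place of 3 without those 3 libraries. The cause was not tested.

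Values that were not called changed sign in 22 cases, all small. After scaling, the diet change was -0.079 for Lpin2 and -0.14 for Dgat2 in vehicle males, and -0.016 for Gpam, -0.18 for Gpat4 and -0.042 for Dgat1 in mixture males. The mixture change was -0.041 for Agpat2 in HFD males, -0.016 for Dgat2 in HFD females, and on average -0.015 for Agpat2 and -0.0083 for Dgat1. The diet by sex difference was -0.032 for Gpam, -0.14 for Gpat4 and -0.034 for Dgat1 with vehicle, and -0.051 for Lpin2 and -0.048 for Dgat1 with the mixture. The sex difference was 0.088 for Lpin2 and 0.0096 for Dgat1 on LFD with vehicle, 0.011 for Dgat1 on LFD with the mixture, and -0.025 and -0.037 for Dgat1 on HFD with vehicle and with the mixture. Without the 3 libraries it was 0.053 for Gpat4 under the mixture in LFD females, -0.019 for Gpat4 under diet in mixture males, and 0.023 for Agpat2 in the difference of mixture changes between diets in males.

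The replicate block changed no call from called to not called, and it turned 6 member results from not called to called. Samples with the same replicate number deviated together little on average. Over 168 same-number pairs the mean correlation was 0.017 and 25 were over 0.1, and over 840 other pairs it was -0.003 and 79 were over 0.1. Means over many pairs cannot show whether some of the numbers pair samples, and the main tests assumed no pairing. TPM keep no depth, so what depth limits cannot be given.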
